A study of Homo sapiens with 6 samples.

Results

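Genes whose symbol ends in -AS and a number are named as antisense to another gene, the partner, whose symbol is the stem (GATA3-AS1 and GATA3). The genes described here are the rows of the count table whose Ensembl identifier carries such a symbol in GENCODE 29: 419 of 18677 rows, with 418 symbols, since DNAJC9-AS1 is the name of a pair of rows. The stem is a gene of GENCODE 29 for all but 7 of them, HOXD-AS2, HOXA-AS2, RPARP-AS1 and HOXC-AS3, HOXC-AS2, HOXC-AS1 and HOXB-AS1, and 411 stems are protein coding. For 364 antisense-named genes the partner had a row too. GENCODE types 297 of the 419 as antisense, 56 as lincRNA and 54 as processed transcript, and 1 as protein coding.

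The cells were H1299, an established human line from a non-small cell lung cancer, grown with puromycin. The libraries were 3 labelled as SETDB1 knockout, with the guide hSETDB1 sg1, and 3 labelled as control knockout, with the guide Control sg2. Both groups carry a guide, each group rests on 1 guide, and the sources used here do not say whether the cells were clones or pools or the replicates separate cultures. P-values therefore measure only the spread between these samples, which may be technical, and cannot tell an effect of SETDB1 from an effect of the guide or of a cell line made with it. SETDB1 encodes a methyltransferase that places a repressive methyl mark on lysine 9 of histone H3. Its own mRNA stood at 36.1 to 40.6 CPM (counts scaled to a common library total) in the knockout and at 41.6 to 45.01 CPM in the control, a log2 fold change of -0.17 ± 0.06 (SE; edgeR adjusted p = 0.0151). That call was lost without SETDB1 knockout replicate 2 (-0.13, edgeR adjusted p = 0.0896). Library totals ranged from 29532057 to 35941288 counts. Of the markers looked up for this line, VIM stood at 2216 and 2430 CPM (knockout and control means), KRT18 at 332 and 599 and KRT8 at 157 and 367, and their part in the results below was not tested. EPCAM was at 0.179 ± 0.0694 CPM in the knockout and 0.254 ± 0.0765 CPM in the control (SD, n = 3).

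Antisense transcripts arise from the DNA strand opposite to another gene. Some start beside the partner's own start, where many promoters fire in both directions, and others start inside an intron or beyond the partner's end. Most are long non-coding RNAs at low level, and a few are described as acting on chromatin, on microRNAs or on the partner's RNA. SETDB1 is known for silencing retroviral repeats and germline genes, and parts of long non-coding RNAs often derive from such repeats.

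Reading an antisense gene depends on strand. The sources used here do not say whether the library kit and the counting kept it. Without strand, reads of a gene and of its antisense partner cannot be told apart where their exons overlap, and reads of the partner's unspliced RNA can fall on the exons of an antisense gene that lies in its intron. In GENCODE 29, 291 of the 419 shared exonic bases with the partner, 65 overlapped the partner with no exonic base shared, 55 stood head to head with it, with starts at most 5 kb apart, and 1 lay elsewhere. Of the 1221 antisense-named genes of GENCODE 29, 34.3% had a row. The share with a row was 20.3% where no exonic base lay on the exons of a gene on the other strand, 45.9% where up to 25% did, 43.9% and 36.1% in the next classes (over 25% to 50% and over 50% to 75%), and 16.3% of 43 genes above that.

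The promoter windows below are shown because they belong to antisense-named genes with the largest changes, 3 that rose and 4 that fell. They are the windows among the 10 largest rises and 10 largest falls whose RefSeq start lay within 200 bases of the GENCODE start and which held no base of a protein-coding exon. Each runs from 250 bases before to 50 bases after the start, 5′ to 3′ on the gene's own strand, from RefSeq on GRCh38.p14. Capitals mark CG dinucleotides, the sites of DNA methylation.
BOK-AS1, chr2:241559094-241559393, minus strand: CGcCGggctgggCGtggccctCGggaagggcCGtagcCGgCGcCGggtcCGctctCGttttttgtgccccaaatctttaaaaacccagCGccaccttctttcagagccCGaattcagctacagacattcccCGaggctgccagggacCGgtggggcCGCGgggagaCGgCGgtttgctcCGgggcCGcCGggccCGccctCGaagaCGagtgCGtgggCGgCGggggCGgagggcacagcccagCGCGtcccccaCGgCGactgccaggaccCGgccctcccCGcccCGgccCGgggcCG
ELFN1-AS1, chr7:1742261-1742560, minus strand: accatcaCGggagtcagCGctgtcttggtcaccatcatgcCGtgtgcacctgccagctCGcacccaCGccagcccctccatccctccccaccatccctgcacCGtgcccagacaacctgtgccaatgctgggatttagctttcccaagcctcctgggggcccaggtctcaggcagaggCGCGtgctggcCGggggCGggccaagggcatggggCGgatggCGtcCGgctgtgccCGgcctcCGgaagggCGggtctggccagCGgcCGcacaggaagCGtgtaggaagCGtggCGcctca
ZIM2-AS1, chr19:56765072-56765371, plus strand: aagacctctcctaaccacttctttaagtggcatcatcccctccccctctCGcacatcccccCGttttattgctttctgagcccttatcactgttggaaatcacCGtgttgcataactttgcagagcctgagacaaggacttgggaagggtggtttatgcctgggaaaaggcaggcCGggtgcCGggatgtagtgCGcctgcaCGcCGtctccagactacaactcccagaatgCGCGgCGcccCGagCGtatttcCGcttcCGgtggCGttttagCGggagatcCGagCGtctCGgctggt
MAGI2-AS3, chr7:79452707-79453006, plus strand: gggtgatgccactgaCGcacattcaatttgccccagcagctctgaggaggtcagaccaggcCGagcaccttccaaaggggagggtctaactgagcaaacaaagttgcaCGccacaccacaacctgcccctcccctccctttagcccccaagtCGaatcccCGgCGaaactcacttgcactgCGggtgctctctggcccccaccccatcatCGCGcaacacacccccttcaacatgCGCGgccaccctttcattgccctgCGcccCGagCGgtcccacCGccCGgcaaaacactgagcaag
SOX21-AS1, chr13:94712466-94712765, plus strand: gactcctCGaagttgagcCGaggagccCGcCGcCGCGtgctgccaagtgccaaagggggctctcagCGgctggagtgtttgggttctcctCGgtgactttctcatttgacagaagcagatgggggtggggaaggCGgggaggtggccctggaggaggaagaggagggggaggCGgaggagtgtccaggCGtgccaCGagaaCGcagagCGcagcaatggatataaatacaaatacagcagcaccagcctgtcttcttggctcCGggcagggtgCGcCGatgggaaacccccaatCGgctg
OXCT1-AS1, chr5:41869780-41870079, plus strand: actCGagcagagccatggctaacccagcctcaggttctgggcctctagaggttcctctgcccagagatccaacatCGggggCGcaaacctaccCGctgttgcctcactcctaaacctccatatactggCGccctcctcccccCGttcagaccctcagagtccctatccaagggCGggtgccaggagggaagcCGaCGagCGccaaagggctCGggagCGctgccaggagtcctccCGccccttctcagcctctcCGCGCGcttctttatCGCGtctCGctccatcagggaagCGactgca
HDAC2-AS2, chr6:113969451-113969750, plus strand: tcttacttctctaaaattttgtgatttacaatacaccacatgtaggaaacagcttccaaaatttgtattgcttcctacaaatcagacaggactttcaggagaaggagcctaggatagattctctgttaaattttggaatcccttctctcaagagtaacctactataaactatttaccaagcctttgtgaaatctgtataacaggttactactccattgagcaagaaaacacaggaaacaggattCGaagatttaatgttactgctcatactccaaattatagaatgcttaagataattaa

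These windows held 37 CG dinucleotides for BOK-AS1, 21 for ELFN1-AS1 and 20 for ZIM2-AS1, and 16 for MAGI2-AS3, 18 for SOX21-AS1, 20 for OXCT1-AS1 and 1 for HDAC2-AS2. The median was 14 over 27305 RefSeq promoters and 23 over the 292 antisense-named genes with a window (112 called higher, median 22.5; 49 called lower, median 19; 103 not called, median 25). Unlike the windows printed above, the 292 were not limited by start or by coding exons. In 217 of them the RefSeq start lay within 200 bases of the GENCODE start. A search of both strands found TATAAA in the windows of SOX21-AS1 and HDAC2-AS2, and in 11.95% of all RefSeq promoters. The letters CCAAT were found for ELFN1-AS1 and SOX21-AS1, against 35.7% of all promoters. GGGCGG was found for BOK-AS1, ELFN1-AS1, MAGI2-AS3 and OXCT1-AS1, against 44.6% of all promoters. GGGCGG holds a CG itself, so its matches and the CG counts overlap. A match is a description of the letters and not of a bound site.

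More antisense-named genes were higher than lower in the SETDB1 knockout. Of 379 tested, 159 were called higher and 60 lower by edgeR's quasi-likelihood test with Benjamini-Hochberg adjustment over all 17675 genes tested, at a threshold of 0.05. Among all genes tested 31.9% were called higher and 31.6% lower, against 42.0% and 15.8% of the antisense-named genes. Called genes of either direction made up 57.8% of the antisense-named genes and 63.5% of all genes. The median log2 fold change (SETDB1 knockout over control) was 0.23 for the antisense-named genes and 0.01 for all genes tested. Called rises of at least 2-fold numbered 54 of 379 and called falls of at least 2-fold 14, where 7.14% and 5.78% of all genes passed the same limits. Large rises were not particular to the antisense-named genes. Of 1888 tested genes of other long non-coding types, 266 rose and 89 fell within these limits, and of 252 genes with names starting with LINC, 54 and 6. By mean level, 27 of the 54 rises lay below 1 CPM and 6 at 5 CPM or more. Knockout and control CPM stood apart without overlap in 60.2% of the antisense-named genes and in 66.8% of all genes.

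**Figure D1:**
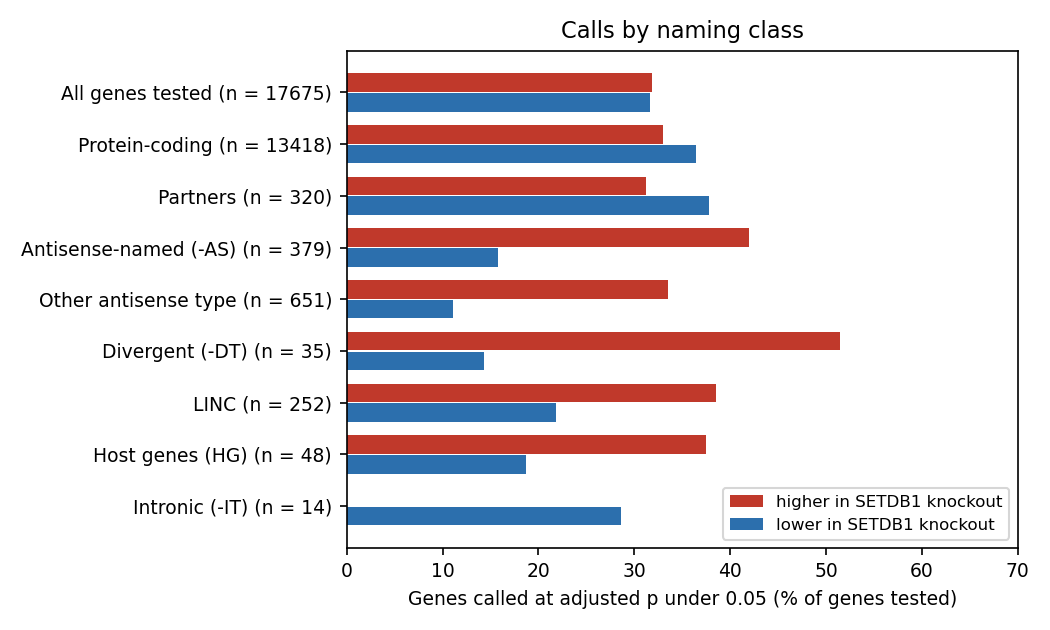
Share of tested genes called higher (red) or lower (blue) in the SETDB1 knockout, in percent, for naming classes and types of genes, with the number tested in brackets. Antisense-named genes were at 42.0% higher and 15.8% lower, and their partners at 31.3% and 37.8%.

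The partners did not share this split. Of 320 partners of tested antisense-named genes, 100 were higher and 121 lower, with a median log2 fold change of -0.07. Genes typed as antisense in GENCODE without an antisense name, 651 in all, were higher in 218 and lower in 72 cases, with a median of 0.22. Among 35 genes named as divergent transcripts (-DT), 18 were higher and 5 lower, and among 252 LINC genes 97 were higher and 55 lower. Of 48 RNA host genes (HG) 18 were higher and 9 lower. Of 14 genes named as intronic transcripts (-IT), which lie on the strand of their host, 4 were lower, and their median was -0.25. Among 13418 protein-coding genes 33.0% were higher and 36.4% lower.

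The table holds rows with more than 10 counts in at least 1 library, and the test a further filter, so that a weak gene seen in only 1 group had to differ; 40 of the 419 were not tested. Levels were therefore taken as the mean over all 6 libraries. In the 89 antisense-named genes at 5 CPM or more, 51 were higher and 20 lower, which is 57.3% and 22.5%, where 33.8% and 36.8% of all genes at that level were called. From 1 to under 5 CPM, 66 of 140 were higher and 21 lower, against 32.4% and 26.3% of all genes at that level. Below 1 CPM, 42 of 150 were higher and 19 lower, against 24.0% and 17.2%. From the lowest to the highest level, called antisense-named genes were higher in 68.9%, 75.9% and 71.8% of cases, called genes of other long non-coding types in 69.0%, 64.8% and 53.6%, and called protein-coding genes in 50.6%, 50.04% and 46.9%. Below 1 CPM the antisense-named genes were thus at the share of other long non-coding types.

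**Figure D2:**
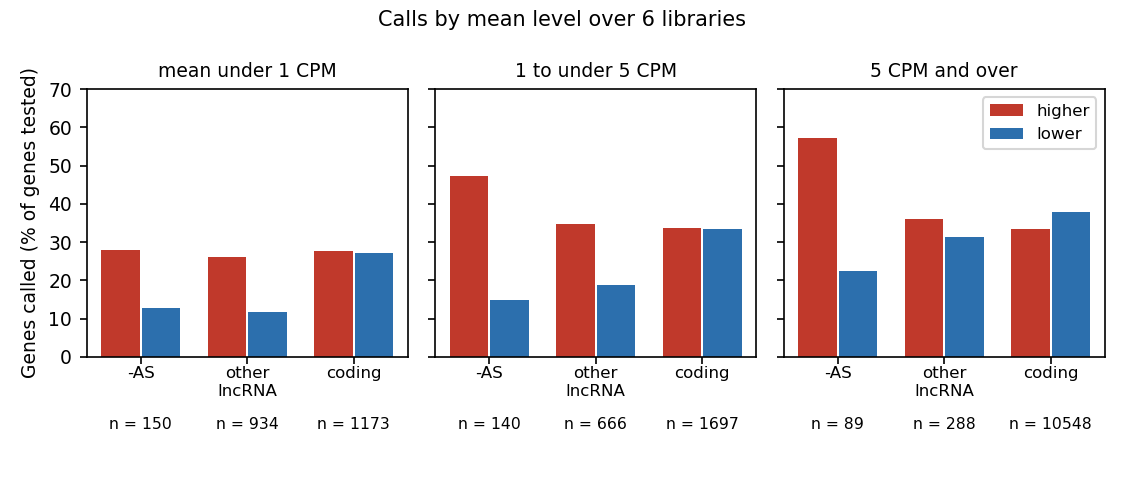
Share of genes called higher (red) or lower (blue), in percent of genes tested, for antisense-named genes, other long non-coding types and protein-coding genes in 3 ranges of mean CPM over the 6 libraries. In the highest range 57.3% of the antisense-named genes were higher, against 36.1% of other long non-coding genes and 33.4% of protein-coding genes, and in the lowest range 28.0%, 26.0% and 27.8%.

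The split was also seen where the annotation has no exon overlap. Of 86 tested antisense-named genes without an exonic base on the exons of the other strand, 46 were higher and 8 lower, with a median log2 fold change of 0.45. Where over 0 to 25% of the exonic bases were shared, 71 of 205 were higher and 44 lower (median 0.13), and from over 25% to 50% it was 30 higher and 5 lower of 63. Genes of nuclear RNA decay and double-stranded RNA handling, among them the exosome, its helicase MTREX and the nucleases DICER1 and DROSHA, were counted as a list: 7 were higher and 9 lower of 23, with a median of -0.01, where 31.9% and 31.6% of all genes tested were called. The exosome adaptor gene RBM7 fell by 0.74 ± 0.07 (SE) on the log2 scale, and the exosome subunit gene EXOSC4 rose by 0.62 ± 0.07 (edgeR adjusted p = 1.94e-08 and 9.61e-08).

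Among the largest rises were antisense-named genes with nearly no reads in the control. BOK-AS1 (chromosome 2, 241544403 to 241558977, minus strand) had 7.10, 8.15 and 8.08 CPM in the SETDB1 knockout and 0, 0 and 0.0847 CPM in the control. It had 771 against 3 counts, a ratio of 252 (95% counting interval 85.9 to 1225; edgeR adjusted p = 1.73e-14). Its partner BOK, a cell death gene of the BCL2 family, shared exons with it and stayed at 38.9 ± 1.75 and 38.3 ± 1.68 CPM, with no call (log2 fold change 0.02 ± 0.06, edgeR adjusted p = 0.774). All knockout libraries were thus above all control libraries for BOK-AS1, while those of BOK overlapped. The neighbours of BOK, up to 25 expressed genes on each side and fewer where the chromosome ends, had a median log2 fold change of 0.39. With it taken out BOK was called lower at -0.37 (edgeR adjusted p = 2.24e-05).

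ELFN1-AS1 (chromosome 7, 1738630 to 1742291, minus strand) overlaps ELFN1, a gene of a synaptic adhesion protein, with no exonic base shared. It had 0.867, 0.578 and 0.790 CPM in the knockout and 0 counts in all control libraries. With a floor of 3 counts for the control libraries summed, it was at least 23.9-fold higher (edgeR adjusted p = 1.05e-07). ELFN1 itself moved the other way, from 26.9 ± 3.22 to 14.0 ± 1.02 CPM, and fell by 0.94 ± 0.08 (SE) on the log2 scale.

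GATA3-AS1 and CELF2-AS1, both on chromosome 10, rose together with their partners. GATA3-AS1 (8050450 to 8053484, minus strand) had 1.13, 1.16 and 1.64 CPM in the knockout and 0, 0 and 0.0282 CPM in the control, 130 against 1 counts (ratio 127, 95% counting interval 22.5 to 5073; edgeR adjusted p = 2.17e-09). GATA3, a transcription factor of lymphoid and luminal epithelial cells, rose from 0.870 ± 0.0898 to 5.18 ± 0.235 CPM, a log2 fold change of 2.58 ± 0.14. CELF2-AS1 (11316834 to 11319884, minus strand) overlaps CELF2, a gene of an RNA-binding splicing regulator, with no exonic base shared. It had 8.90, 7.77 and 9.28 CPM in the knockout and 0.1, 0.126 and 0.198 CPM in the control, a log2 change of 5.87 ± 0.20 (edgeR adjusted p = 3.74e-15). CELF2 rose from 0.0615 ± 0.0309 to 0.373 ± 0.0575 CPM (edgeR adjusted p = 0.000127), and per kilobase of exon CELF2-AS1 stood at 3.50 and CELF2 at 0.0340 CPM per kb in the knockout.

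SLC44A3-AS1 (chromosome 1, 94613814 to 94855426, minus strand) reached the highest level of the 10. It had 14.0, 15.5 and 15.1 CPM in the knockout against 0.400, 0.347 and 0.395 CPM in the control, a log2 change of 5.27 ± 0.14 (edgeR adjusted p = 4.73e-17). Its partner SLC44A3, a choline transporter-like gene, fell from 2.37 ± 0.0602 to 1.44 ± 0.296 CPM. GENCODE types SLC44A3-AS1 as a transcribed processed pseudogene, so that reads can be shared with its parent gene.

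ZIM2-AS1 (chromosome 19, 56765344 to 56799646, plus strand) is named after an imprinted zinc finger gene. Its level was 7.67, 8.38 and 8.95 CPM in the knockout and 0.467, 0.284 and 0.254 CPM in the control, a log2 change of 4.65 ± 0.17 (edgeR adjusted p = 1.51e-14). Genes around it had a median of 0.67, and the change was 3.98 with that median taken out. GAS6-AS1 rose from 0.158 ± 0.0662 to 1.71 ± 0.179 CPM (log2 fold change 3.43 ± 0.29), while GAS6, a ligand of the AXL receptor family, rose by 0.20 ± 0.06 from 158 ± 14.0 to 182 ± 2.60 CPM.

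The other 3 of the largest rises were smaller. C1RL-AS1 rose 5.22-fold from 1.21 ± 0.290 to 6.27 ± 0.620 CPM beside C1RL, a complement protease gene, which rose by 2.65 ± 0.09 on the log2 scale from 2.89 ± 0.152 CPM. KCNJ2-AS1 rose 4.86-fold to 0.513 ± 0.114 CPM, and KCNJ2, which encodes an inward rectifier potassium channel and starts 729 bases away, rose by 2.23 ± 0.20. DLGAP4-AS1 rose 5.04-fold to 1.67 ± 0.175 CPM, whereas DLGAP4, a postsynaptic scaffold gene, fell from 59.9 ± 0.895 to 49.6 ± 1.78 CPM. The edgeR adjusted p of these 3 antisense-named genes was 8.30e-05 or lower.

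**Figure D3:**
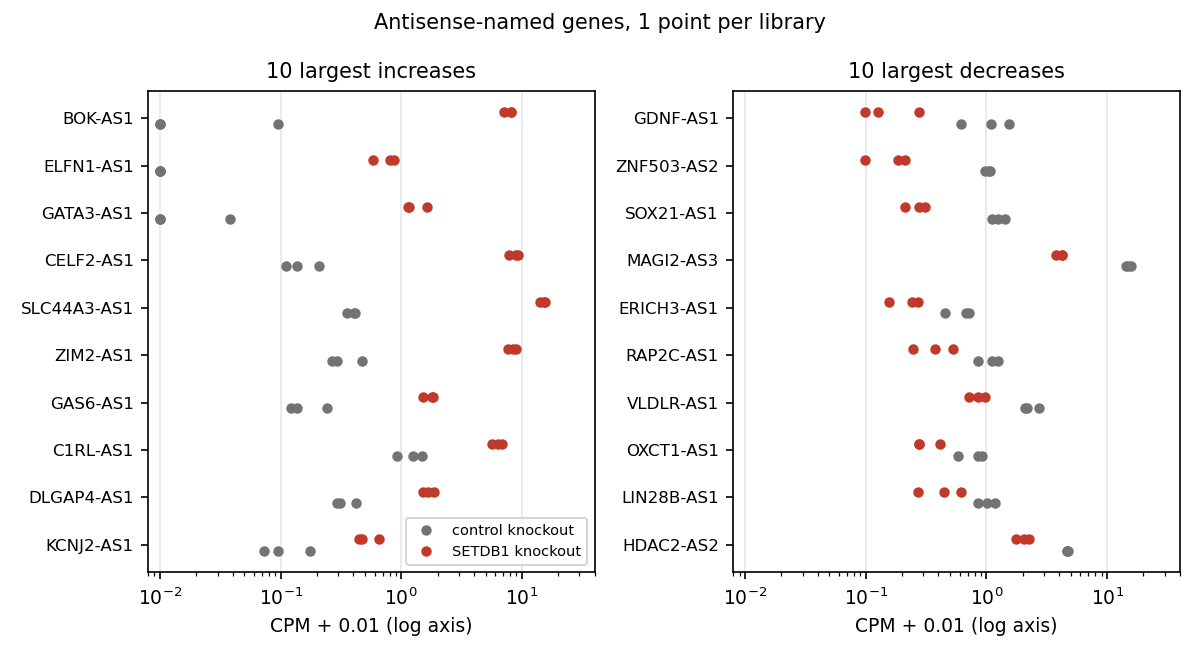
CPM of each library (0.01 added, log axis) for the 10 antisense-named genes with the largest called rises and the 10 with the largest called falls; red points are SETDB1 knockout and grey points control knockout libraries. The groups do not overlap for any of the 20, which was a condition of their choice.

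The largest falls were less steep than the largest rises and started from low levels in most cases. GDNF-AS1 had 0.267, 0.116 and 0.0878 CPM in the knockout and 0.601, 1.51 and 1.07 CPM in the control, and it fell by 2.78 ± 0.41 on the log2 scale (edgeR adjusted p = 6.60e-06). GDNF, a neurotrophic factor gene, fell by 2.44 ± 0.15. ZNF503-AS2 had 0.200, 0.173 and 0.0878 CPM against 1.07, 1.04 and 0.960 CPM in the control and fell by 2.72 ± 0.31, and the zinc finger gene ZNF503, with its start 387 bases away, fell by 2.55 ± 0.22. In both pairs the antisense-named gene and its partner were lower in each knockout library than in each control library. Genes around ZNF503-AS2 had a median of -0.52.

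SOX21-AS1, head to head with the transcription factor gene SOX21, whose values were not analysed here, had 0.300, 0.202 and 0.263 CPM against 1.10, 1.42 and 1.24 CPM in the control, and fell by 2.29 ± 0.27. MAGI2-AS3 was the most abundant of these 10, with 3.77, 4.22 and 4.21 CPM in the knockout and 14.2, 15.9 and 14.9 CPM in the control. It fell by 1.88 ± 0.09 (edgeR adjusted p = 4.59e-13), while MAGI2, a scaffold protein gene whose start lies 697 bases away, had 3.63 ± 0.130 and 3.96 ± 0.245 CPM and was not called (-0.12 ± 0.11, edgeR adjusted p = 0.346). This near pair was thus called in 1 of its genes only.

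Of the other 6, VLDLR-AS1 and OXCT1-AS1 fell by 1.47 ± 0.19 and 1.31 ± 0.30. Their partners fell by similar amounts: VLDLR, a lipoprotein receptor gene, by 1.41 ± 0.06 and OXCT1, a gene of ketone body use, by 1.47 ± 0.05. ERICH3-AS1 and RAP2C-AS1 fell by 1.5 ± 0.34 and 1.49 ± 0.28, and RAP2C, a small GTPase gene, by 0.60 ± 0.11. LIN28B-AS1 and HDAC2-AS2 on chromosome 6 fell by 1.24 ± 0.28 and 1.23 ± 0.12, next to falls of 0.84 ± 0.06 for LIN28B, a repressor of let-7 microRNAs, and 0.35 ± 0.05 for the deacetylase gene HDAC2. Genes around both had a median of -0.50. With it taken out the changes were -0.74 for LIN28B-AS1 and -0.73 for HDAC2-AS2 (edgeR adjusted p = 0.0308 and 6.12e-05), and HDAC2 turned to 0.15 (edgeR adjusted p = 0.0174).

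Antisense-named genes and partners tended to be called in the same direction when both were called. In 323 pairs with both genes tested, with 320 distinct partners, 98 were called in the same direction (65 both higher, 33 both lower) and 38 in opposite directions. Where the antisense-named gene was higher (139 pairs), the partner was higher in 46.8% and lower in 24.5%. Where it was lower (51 pairs), the partner was lower in 64.7% and higher in 7.84%. Among all genes tested 31.9% were higher and 31.6% lower. The log2 fold change of the antisense-named gene was above that of its partner in 228 pairs.

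The distance between the starts went with how closely pairs moved. A start here is the outermost end of the gene record in GENCODE 29, so other transcripts of a gene can start elsewhere. The GENCODE starts of VLDLR-AS1 and GDNF-AS1 lay 21525 and 28097 bases from their partners' starts. Their RefSeq starts lay 20986 and 28295 bases from their GENCODE starts. Both pairs were counted as distant, and correlations with other starts were not tested. In 138 pairs with starts on opposite strands within 1 kb, the log2 fold changes of both genes had a Pearson correlation of 0.72 and a Spearman correlation of 0.61 across pairs. In the 185 pairs with starts further apart the values were 0.34 and 0.34, and without the 5 pairs whose antisense-named gene changed by over 4 on the log2 scale 0.42 and 0.36. Over pairs with both genes at 1 CPM or more on average, they were 0.60 and 0.57 for 85 near pairs, and 0.08 and 0.14 for 103 distant pairs. With the nearest other tested gene in place of the partner, the Pearson and Spearman correlations were 0.19 and 0.26 for near pairs, and 0.16 and 0.31 for distant pairs. By rank, the distant partner was thus hardly closer than the nearest other gene (0.34 against 0.31). These are descriptions across pairs, which share libraries, may share reads and are not independent replicates.

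Changes of whole stretches of chromosome enter these correlations. The median of up to 25 expressed genes on each side was taken out of both genes. The Pearson correlation was then 0.61 over the near pairs and 0.27 over the distant pairs, and 0.34 and -0.09 with both genes at 1 CPM or more. By overlap, the Pearson correlation before and after this step was 0.45 and 0.34 for 229 pairs with shared exons, 0.41 and 0.42 for 44 pairs with overlap but no shared exon, and 0.61 and 0.32 for 49 head-to-head pairs. In the near pairs the antisense-named gene was above its partner in 109 of 138, and its median log2 fold change was 0.17 against -0.10 for the partners. Near starts therefore went with related changes but not with equal ones.

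**Figure D4:**
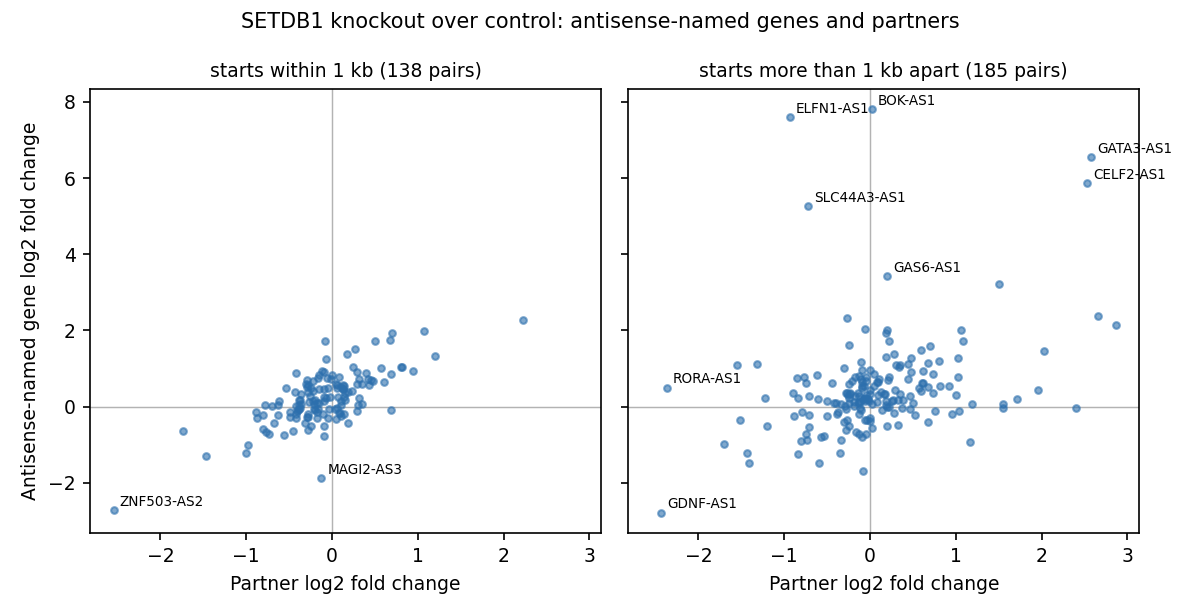
Log2 fold change (SETDB1 knockout over control) of each antisense-named gene against that of its partner, for 138 pairs with starts within 1 kb (left) and 185 pairs with starts further apart (right); 1 point per pair. The left points lie along a rising band (Pearson correlation 0.72), and the steep rises of BOK-AS1, ELFN1-AS1 and SLC44A3-AS1 stand apart on the right.

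In 34 of the 38 opposite pairs the antisense-named gene was higher and the partner lower. Over all 323 pairs, 139 antisense-named genes were higher and 51 lower, and 102 partners were higher and 122 lower. A lean this way was thus present over all pairs too. Besides ELFN1-AS1, SLC44A3-AS1 and DLGAP4-AS1, the largest differences were in RORA-AS1, MYLK-AS1 and PROSER2-AS1. RORA, a nuclear receptor gene, fell from 2.42 ± 0.143 to 0.465 ± 0.0552 CPM, while RORA-AS1 had 1.5, 1.99 and 1.64 CPM in the knockout and 1.27, 0.978 and 1.38 CPM in the control. The rise of RORA-AS1 was small (log2 fold change 0.50 ± 0.18, edgeR adjusted p = 0.0238) and lost its call without SETDB1 knockout replicate 2 (edgeR adjusted p = 0.134), without control knockout replicate 2 (0.135) and in DESeq2 (0.0823).

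MYLK, the gene of myosin light chain kinase, fell from 21.3 ± 1.17 to 7.29 ± 0.580 CPM, and MYLK-AS1 rose 2.12-fold from 0.881 ± 0.0797 to 1.89 ± 0.243 CPM. PROSER2-AS1 had 16.0, 15.7 and 14.9 CPM in the knockout and 6.71, 7.44 and 7.26 CPM in the control, a rise of 1.12 ± 0.08 on the log2 scale (edgeR adjusted p = 1.69e-10), against a fall of PROSER2 from 5.11 ± 0.230 to 2.04 ± 0.303 CPM. The log2 ratio of antisense to partner counts (0.5 added to each) rose by 2.45 for PROSER2-AS1, 2.64 for MYLK-AS1 and 2.85 for RORA-AS1. For all 6 pairs the ratio was higher in every knockout library than in every control library. The pairs were chosen on these libraries as called in opposite directions with the largest difference, so this separation is a description and not a test.

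**Figure D5:**
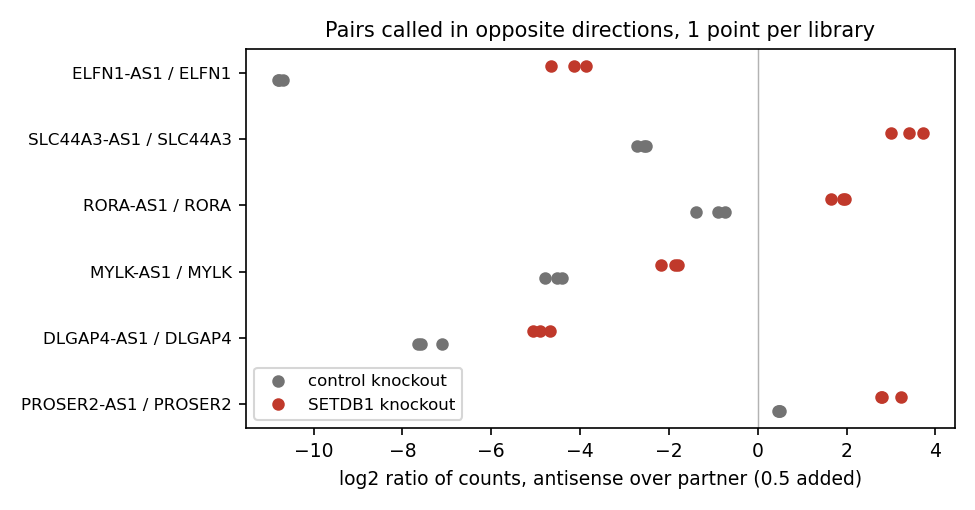
Log2 ratio of antisense-named gene counts to partner counts (0.5 added to each) in each library for the 6 opposite pairs with the largest difference; red points are SETDB1 knockout and grey points control knockout libraries. In every pair the red points lie to the right of the grey ones, which follows from how the pairs were chosen, and for SLC44A3 and RORA they cross 0, so that the antisense-named gene had fewer counts than its partner in the control and more in the knockout.

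The 6 most abundant antisense-named genes were called with log2 fold changes from -0.71 to 0.14. LRRC75A-AS1, a host of small nucleolar RNAs, had 340, 344 and 343 CPM in the knockout and 302, 314 and 320 CPM in the control (log2 fold change 0.13 ± 0.05, edgeR adjusted p = 0.0277). FGD5-AS1 had 121 ± 7.77 and 109 ± 1.91 CPM (0.14 ± 0.06, edgeR adjusted p = 0.0291). Each of these calls was lost without SETDB1 knockout replicate 2 or 3 or control knockout replicate 1 or 2 (edgeR adjusted p = 0.0851 to 0.106 for LRRC75A-AS1 and 0.0624 to 0.200 for FGD5-AS1). With the neighbouring genes' median taken out LRRC75A-AS1 was at -0.06 and not called, and FGD5-AS1 was called lower at -0.15 (edgeR adjusted p = 0.314 and 0.0289). OIP5-AS1, the human counterpart of the conserved RNA Cyrano, went from 116 ± 6.51 to 91.1 ± 4 CPM and fell by 0.34 ± 0.06, in a stretch with a median of -0.43. With that median taken out it stood at 0.08 and was not called (edgeR adjusted p = 0.220).

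TMEM147-AS1 fell from 66.9 ± 5.29 to 41.0 ± 2.36 CPM and its near partner TMEM147, a gene of a membrane protein, from 233 ± 27.6 to 140 ± 3.77 CPM, by 0.71 ± 0.06 and 0.74 ± 0.07. The genes around this pair had a median of -0.90, and with it taken out TMEM147-AS1 was called higher at 0.19 (edgeR adjusted p = 0.0136). TP73-AS1 fell by 0.19 ± 0.06 from 58.4 ± 1.97 CPM, while TP73, a transcription factor gene, rose from 4.51 ± 0.684 to 8.77 ± 0.345 CPM; the TP73-AS1 call was lost without SETDB1 knockout replicate 2 (edgeR adjusted p = 0.0575). THAP9-AS1 fell by 0.26 ± 0.05 from 53.4 ± 0.965 CPM. With the neighbouring genes' median taken out neither TP73-AS1 nor THAP9-AS1 was called (edgeR adjusted p = 0.113 and 0.0557). Per kilobase of exon the antisense-named gene was above its partner in 53 of 364 pairs in the control, LRRC75A-AS1 at 83.0 CPM per kb against 0.319 for LRRC75A among them, and the medians were 0.520 CPM per kb for antisense-named genes and 4.84 for partners.

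Of 35 widely described antisense RNAs listed for this comparison, 27 were tested, and 16 were higher and 5 lower, and 3 of the rises were at least 2-fold. Among all genes tested 31.9% were higher, 31.6% lower and 7.14% higher by at least 2-fold, and among all antisense-named genes tested 42.0% were higher and 15.8% lower. Those 3 were GATA3-AS1, HOXC-AS1, which rose from 0.445 ± 0.184 to 1.12 ± 0.168 CPM, and FOXP4-AS1, which rose from 1.00 ± 0.218 to 2.03 ± 0.0679 CPM while the forkhead gene FOXP4 was called lower at -0.30 ± 0.06. With the neighbouring genes' median taken out FOXP4 was not called (edgeR adjusted p = 0.987). In the HOX clusters, HOXC-AS2 rose by 0.95 ± 0.14 and HOXB-AS1 fell by 0.35 ± 0.07, and HOXC-AS3 and HOXA-AS2 were not called (0.22 ± 0.24 and -0.68 ± 0.33; edgeR adjusted p = 0.459 and 0.0768). HOXA-AS2 was called lower without control knockout replicate 1 (edgeR adjusted p = 0.00766) and with the replicate block (0.0373).

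Other members of that list moved by less than 2-fold. CDKN2B-AS1, known as ANRIL, had 3.03, 2.86 and 2.90 CPM in the knockout and 3.10, 2.87 and 2.60 CPM in the control, with overlapping groups (0.04 ± 0.13, edgeR adjusted p = 0.796). NNT-AS1 fell from 21.3 ± 1.00 to 13.7 ± 0.628 CPM, and NNT, a mitochondrial transhydrogenase gene with its start 538 bases away, fell more, from 29.6 ± 0.800 to 8.86 ± 0.456 CPM. LOXL1-AS1 and HIF1A-AS2 fell by 0.25 ± 0.08 and 0.61 ± 0.17, and the LOXL1-AS1 call was lost with the neighbouring genes' median taken out (edgeR adjusted p = 0.142). ZEB1-AS1 and VIM-AS1 were called higher at 0.27 ± 0.10 and 0.28 ± 0.10 (edgeR adjusted p = 0.0208 and 0.0241). Both lost their call in DESeq2 (adjusted p = 0.0618 and 0.0626) and without SETDB1 knockout replicate 2 (edgeR adjusted p = 0.0701 and 0.0767) or control knockout replicate 2 (0.0505 and 0.192). ZEB1-AS1 also lost it without SETDB1 knockout replicate 1 (0.0578) or control knockout replicate 3 (0.115), and VIM-AS1 without SETDB1 knockout replicate 3 (0.0929). Their partners, the transcription factor gene ZEB1 and the intermediate filament gene VIM, stood at -0.17 ± 0.07 and -0.13 ± 0.06. Those calls were lost with library size alone (edgeR adjusted p = 0.0956 and 0.150), with upper-quartile scaling (0.0774 and 0.123) and with the neighbouring genes' median taken out (0.607 and 0.920). ZEB1 also lost it in DESeq2 (adjusted p = 0.0570) and without SETDB1 knockout replicate 1 or 3 or control knockout replicate 3 (edgeR adjusted p = 0.0596 to 0.220), and VIM when any 1 library other than control knockout replicate 1 was left out (0.0605 to 0.126).

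TMPO-AS1, MCM3AP-AS1 and FOXD2-AS1 rose by 0.40 ± 0.07, 0.36 ± 0.08 and 0.53 ± 0.09, each without overlap of the groups. SBF2-AS1 and TTN-AS1 rose by 0.31 ± 0.10 and 0.25 ± 0.08, calls that were lost without SETDB1 knockout replicate 2 for SBF2-AS1 (edgeR adjusted p = 0.0743) and without SETDB1 knockout replicate 1 for TTN-AS1 (0.0502). In the annotation, 55.1% of the exonic bases of TTN-AS1 lay on exons of the other strand. DDX11-AS1 and ARHGAP5-AS1 were not called, at 0.04 ± 0.11 and -0.04 ± 0.18. SPRY4-AS1, GATA6-AS1, DLX6-AS1 and SLC16A1-AS1 were called higher at 0.93 ± 0.35, 0.58 ± 0.25, 0.20 ± 0.08 and 0.26 ± 0.09. Each of these 4 calls was lost when 1 of several single libraries was left out, with edgeR adjusted p up to 0.109 for SPRY4-AS1, 0.279 for GATA6-AS1, 0.201 for DLX6-AS1 and 0.0953 for SLC16A1-AS1. In DESeq2 SPRY4-AS1, GATA6-AS1 and DLX6-AS1 lost their call (adjusted p = 0.119, 0.0949 and 0.110). With the neighbouring genes' median taken out SPRY4-AS1 and SLC16A1-AS1 lost theirs (edgeR adjusted p = 0.0505 and 0.668), while GATA6-AS1 and DLX6-AS1 kept it.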

How the data were processed

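RNA-seq of 3 SETDB1 knockout and 3 control knockout libraries of H1299 cells was used, with groups and replicate numbers from the sample titles. The authors deposited raw read counts per gene. FastQC, TopHat2, HTSeq and the build GRCh38.p7 are listed in the submitters' processing notes, and the strand setting of the counting was not given there. Every row had at least 11 counts in 1 library. Identifiers were matched without version to GENCODE 29 (GRCh38), which named 18595 of 18677 rows; the Y copy of 1 pseudoautosomal gene was not counted as a member.

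Tests used R 4.3.3 and edgeR 4.0.16: filterByExpr, TMM scaling (factors 0.976 to 1.02), robust quasi-likelihood fits and Benjamini-Hochberg adjustment over 17675 genes. Replicates differed by more than counting error (chi-square per degree of freedom 2.32 to 10.3). The common biological coefficient of variation was 4.89%. Standard errors are the log2 fold change over the root of the F statistic. Floors (3 counts) and exact 95% intervals cover counting error only. Steps were tested on simulated data.

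The genes described, the lists and the tests were chosen with earlier results of these data known. Named were the 10 largest rises and falls among called genes without overlap of the groups and at least 0.5 CPM in the higher group, the 6 highest levels, the 6 opposite pairs with the largest difference, and the tested genes of a fixed list, with partners; a few genes are not reported here. Alternatives were other scalings, filters and thresholds, DESeq2 1.42.0, limma-voom (limma 3.58.1), the replicate number as a block, each library left out, and the neighbourhood median taken out. That is the median of up to 25 expressed neighbours (log2 CPM above 3) on each side, fewer near a chromosome end, which can include the partner.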

Additional observations from a re-analysis of the deposited data

How the results depend on the processing

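The excess of rises held in each fit run: called antisense-named genes were higher in 71.3% to 77.6% of cases over the alternatives, and all genes tested were higher in 26.8% to 34.8% and lower in 26.6% to 34.3% of cases outside the fold test. Leaving out 1 library gave 136 to 150 higher and 52 to 59 lower genes. A test against a fold of 1.5 (glmTreat) gave 61 higher and 18 lower genes, where 8.8% of all genes tested were higher and 8.46% lower. It called 23 pairs in the same direction and 4 in opposite directions. An adjusted p under 0.01 left 23 opposite pairs, and the filter of at least 1 CPM in 3 libraries 61 pairs in the same direction, with fewer genes tested. Genes with no exonic base on the other strand alone gave 46 and 8 genes, and 22 and 12 pairs.

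With the neighbourhood median taken out, the sign turned, with a call in the new direction, for FGD5-AS1 (-0.15), TMEM147-AS1 (0.19), BOK (-0.37), HDAC2 (0.15), OIP5 (0.36) and TMEM147 (0.16). OIP5 and BOK had no call before. The sign also turned, but with no call, for LRRC75A-AS1 (-0.0624), OIP5-AS1 (0.0819), VIM (0.00754) and SLC16A1 (-0.0771). SETDB1 lost its call with library size alone (-0.13), under glmTreat (-0.17), at an adjusted p under 0.01 (-0.17) and without SETDB1 knockout replicate 2, within a range of -0.21 to -0.13 over single libraries left out. Same-numbered libraries did not pair throughout (correlations of deviations 0.384, -0.146 and 0.197 for replicates 1, 2 and 3). The value for replicate 1 was the highest between any knockout and control library. SETDB1 knockout replicate 2 correlated best with control knockout replicate 3, at 0.367. With the replicate block 164 antisense-named genes were higher and 65 lower, where 33.2% of all genes tested were higher and 33.0% lower. The causes of these shifts were not tested. Of the 53 antisense-named genes named, 30 kept their side of the threshold and direction in every alternative that gave a value. At these depths 1 count was 0.0282 to 0.0334 CPM, so genes below 1 CPM rest on few reads.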

Other observations

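The split of calls among antisense-named genes varied by chromosome. On chromosome 10, 10 of 25 tested were lower and 5 higher, where 64.5% of all tested genes of that chromosome were lower and 9.94% higher. On chromosome 20, 6 of 9 were higher and 1 lower, where 51.0% of all genes were higher and 23.6% lower. The median log2 fold changes there were 1.08 and 0.21. The medians also differed on chromosomes 18 and 7. On chromosome 18, 4 of 5 antisense-named genes were higher and 0 lower (median log2 fold change 0.67). Of all tested genes of chromosome 18, 21.0% were higher and 40.9% lower, with a median of -0.13. On chromosome 7 the medians were 0.50 for antisense-named genes and -0.01 for all genes. Other chromosomes showed no excess of rises. Chromosome 6 had 4 higher and 7 lower of 15 (median -0.28), where 22.1% of all its genes were higher and 45.9% lower (median -0.19). The X chromosome had 0 higher and 3 lower of 9, where 21.5% and 42.6% of all its genes were called. Chromosomes 15 and 9 each had 3 higher and 3 lower, of 15 and 12. These are counts of few genes, and no test compared chromosomes.

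Antisense-named genes left out of the test by the filter on low counts, 40 in all, could also have uneven counts. PTPRD-AS1, named after a receptor phosphatase gene, went from 2 summed control counts to 28 in the knockout, 13.7 times as many per library total (95% counting interval 3.46 to 119). This gene and the next pair were picked after their values were seen. The partner of RNF144A-AS1, the ubiquitin ligase gene RNF144A, had 313 counts in the knockout and 0 in the control, at least 102-fold higher with 3 counts over the group as the floor, and RNF144A-AS1 had 40 and 15 counts.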
